A study of Mus musculus with 15 samples.

Results

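TCR β chains assembled without any N insertion made up 2078 of the 18625 productive rearrangements sequenced from CD8+ PD-1+ CD44+ T cells of 5 mice, or 11.2%. A rearrangement was counted here when it was in frame without a stop codon and when the numbers of N bases listed for both of its joints summed to 0. The remaining 16547 productive rearrangements, each with 1 or more N bases, are called inserted TCRs below. A unique TCR is a distinct rearrangement of 87 bases within a sample, and its templates are the genomes estimated to carry it. The 2078 rows held 1946 distinct sequences and 1568 distinct CDR3 amino acid sequences. Of the 2078, 1833 came from TdLN samples, 113 from tumor 1 and 132 from tumor 2, and the TdLNs of mice 4 and 5 alone gave 1519.

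All samples came from untreated mice, labelled Control, that carried B16F10GP tumors on both flanks. B16F10GP is a C57BL/6 mouse melanoma line that expresses the glycoprotein of lymphocytic choriomeningitis virus as a model antigen. The mice were female C57BL/6 animals bought at 6 weeks of age. Tumor 1 is the right tumor (T-R), which was implanted first, tumor 2 is the left tumor (T-L), and the tumor-draining lymph node (TdLN, labelled LN) is that of the tumor 1 side. T cells were flow sorted as CD8+ PD-1+ CD44+, that is as antigen-experienced cells, and the sort makes this a selected fraction of the repertoire. Samples with the same number were taken as 1 mouse, which gives 5 samples per tissue and 15 in all.

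T cell receptor β genes are assembled in the thymus from V, D and J gene segments. The recombinase opens the ends of the segments, nucleases trim them, and the enzyme terminal deoxynucleotidyl transferase (TdT) can add bases that no gene encodes, the N insertions. The joined region encodes the third complementarity-determining region (CDR3), the loop of the receptor that lies over the peptide. TdT is absent or low in the fetal and newborn mouse thymus, and receptors without N insertions are a known feature of T cells made early in life. Because such a receptor can be written from germline segments and trimming alone, the same one can arise more easily in several animals.

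Productive TCRs per sample ranged from 1290 to 5722 for the TdLN, from 183 to 366 for tumor 1 and from 50 to 553 for tumor 2, over 3254 to 9105, 3601 to 6137 and 238 to 3975 productive templates. Tumor 2 of mouse 4 was the shallowest sample, with 50 TCRs, 6 of them without insertions. The libraries of mice 4 and 5 carry another style of name than those of mice 1 to 3, and both TdLNs of that style held over 3 times as many unique TCRs as any other. Samples also shared rearrangements base for base across mice. The share of inserted TCRs whose exact nucleotide sequence was also listed for another mouse averaged 2.17% ± 1.63 (SD, n = 5) for TdLN samples, 14.8% ± 7.97 for tumor 1 and 36.4% ± 18.9 for tumor 2, where the 5 mice had 56.2%, 43.6%, 40.3%, 36.4% and 5.38%. Whether such identical reads came from separate T cells or were carried between libraries was not tested. Results on sharing are therefore also given for matches through another nucleotide sequence. These still include copies of a read that differ from it in the V part alone, so they do not fully set such identical reads aside.

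The 2 germline D segments, in which every D base of these TCRs was found, are shown first, because their G-rich letters are all that stands between V and J in this class. In the GRCm38 (mm10) genome, Trbd1 lies at chr6:41533201-41533212 and Trbd2 at chr6:41542163-41542176, both on the plus strand.
Trbd1: gggacagggggc
Trbd2: gggactgggggggc

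The whole read of the TCR without insertions that had most templates in any sample, 264 in tumor 1 of mouse 1, is shown to give the layout, 5′ to 3′, with the D bases in capitals here and below. Its V part matched Trbv2 exactly at chr6:41047931-41047995, inside the V exon, and its J part matched Trbj1-5 at chr6:41535086-41535102.
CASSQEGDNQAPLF, whole read: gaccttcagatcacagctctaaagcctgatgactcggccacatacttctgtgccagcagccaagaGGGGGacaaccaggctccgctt

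Read against GRCm38, 1803 of the 1946 distinct sequences (92.7%) could be written wholly as a stretch of the named V gene, a stretch of D and a stretch of the named J gene with nothing left over. The D part matched in all 1946 and the J part in 1944, the other 2 having no single J gene named. The V part of 141 differed from the reference gene, and 133 of these had no more than 1 template in any sample. The D part, where one was assigned, was 2 to 14 bases long with a median of 6, and 90 of the 2078 rows had no D base at all. Trbd1 was assigned to 864 rows and Trbd2 to 757, while 367 carried bases that both hold. Over the 1863 distinct sequences with a D part only 114 different D parts were seen, the commonest being GG (60 sequences), GGGG (56), GGGGG (54) and GGG (50), which are found in both genes.

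The CDR3 found in most mice is shown for the variety of ways in which it was made. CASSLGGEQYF was assembled without insertions in all 5 TdLNs, in 9 listed rearrangements from 6 V genes, always with Trbj2-7. Of these, 1 with 1 template in the TdLN of mouse 1 is no separate way of making it. Its junction is that of the Trbv29 form below, from the same sample, and it differs in the V part alone. Below are 7 of them, from the codon of the opening cysteine to the end of the read, which stops 1 codon before the closing phenylalanine.
Trbv12-2 to Trbj2-7: tgtgccagctctctGGGGGGtgaacagtac
Trbv26 to Trbj2-7: tgtgccagcagtctgGGGGGGgaacagtac
Trbv29 to Trbj2-7: tgtgctagcagtttaGGGGGCgaacagtac
Trbv16 to Trbj2-7: tgtgcaagcagcttGGGGGGGgaacagtac
Trbv16 to Trbj2-7: tgtgcaagcagcttagGGGGCgaacagtac
Trbv26 to Trbj2-7: tgtgccagcagtctgGGGGGtgaacagtac
Trbv17 to Trbj2-7: tgtgctagcagtCTGGGGGGtgaacagtac

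The Trbv12-2 form was the only one of the 9 that was seen in 2 mice, with 2 templates in the TdLN of mouse 2 and 9 in that of mouse 4. Across the TdLNs of mice 1 to 5 the CDR3 had 6, 2, 5, 20 and 2 templates, and no tumor listed it without insertions. Another 3 rearrangements with N bases, all in the TdLN of mouse 4, encoded the same CDR3 with 6 templates. Its copies were thus few in every mouse.

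The other 4 CDR3s that ranked highest, by number of mice and then by templates, are shown because each reached its rank through the same V and J genes in every mouse that had it. For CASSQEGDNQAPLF, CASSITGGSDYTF and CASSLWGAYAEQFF the count of mice rests on reads that were identical over all 87 bases. The 2 forms of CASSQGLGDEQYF differ in where V ends and D begins.
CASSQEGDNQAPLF, Trbv2 to Trbj1-5: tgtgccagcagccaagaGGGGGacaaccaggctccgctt
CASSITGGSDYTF, Trbv19 to Trbj1-2: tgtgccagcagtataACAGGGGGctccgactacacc
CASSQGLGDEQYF, Trbv5 to Trbj2-7: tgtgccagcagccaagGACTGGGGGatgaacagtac
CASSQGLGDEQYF, Trbv5 to Trbj2-7: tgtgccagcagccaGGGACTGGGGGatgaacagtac
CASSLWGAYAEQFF, Trbv29 to Trbj2-1: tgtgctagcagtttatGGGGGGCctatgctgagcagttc

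The share of unique productive TCRs without N insertions lay between 5.44% and 13.6% in every sample, and no difference between tissues passed a test. In the TdLN it was 7.05% in mouse 1 (95 of 1347, 95% Wilson interval 5.80 to 8.55), 7.60% in mouse 2 (124 of 1631, 6.41 to 8.99), 7.36% in mouse 3 (95 of 1290, 6.06 to 8.92), 12.9% in mouse 4 (740 of 5722, 12.1 to 13.8) and 13.6% in mouse 5 (779 of 5722, 12.7 to 14.5). Tumor 1 of the same mice held 8.57% (21 of 245, 5.67 to 12.7), 6.16% (18 of 292, 3.93 to 9.53), 6.01% (11 of 183, 3.39 to 10.4), 7.92% (29 of 366, 5.57 to 11.1) and 10.1% (34 of 337, 7.31 to 13.8). Tumor 2 held 5.44% (18 of 331, 3.47 to 8.43), 6.91% (25 of 362, 4.72 to 9.996), 6.70% (13 of 194, 3.96 to 11.1), 12% (6 of 50, 5.62 to 23.8) and 12.7% (70 of 553, 10.1 to 15.7). Mice 4 and 5 were the highest in the TdLN and in tumor 2, with a gap to mice 1 to 3, whereas in tumor 1 mouse 1 lay between them. Intervals cover counting error only.

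The TdLN mean was 9.71% ± 3.26 (SD, n = 5), that of tumor 1 7.75% ± 1.71 and that of tumor 2 8.74% ± 3.33. Tumor 1 minus TdLN was -1.96 percentage points on average, with tumor 1 lower in 4 of 5 mice, with p = 0.286 by a two-sided exact permutation test that leaves the mice unpaired (adjusted p = 0.5 over 6 tissue comparisons). It was -1.20 points without mouse 4. Tumor 2 was below the TdLN of the same mouse, a node of the tumor 1 side, in 5 of 5 mice, with differences of -1.61 to -0.663 points. The mean difference of -0.973 ± 0.383 points (SD within mice, n = 5) was small beside the spread between mice (unpaired exact permutation p = 0.532, adjusted p = 0.548). Paired by mouse, the exact sign-flip permutation test gave the smallest p that 5 mice allow, 0.0625 (adjusted p = 0.188). Tumor 1 minus TdLN was -0.424 points within mice 1 to 3 and -4.27 points within mice 4 and 5.

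**Figure D1:**
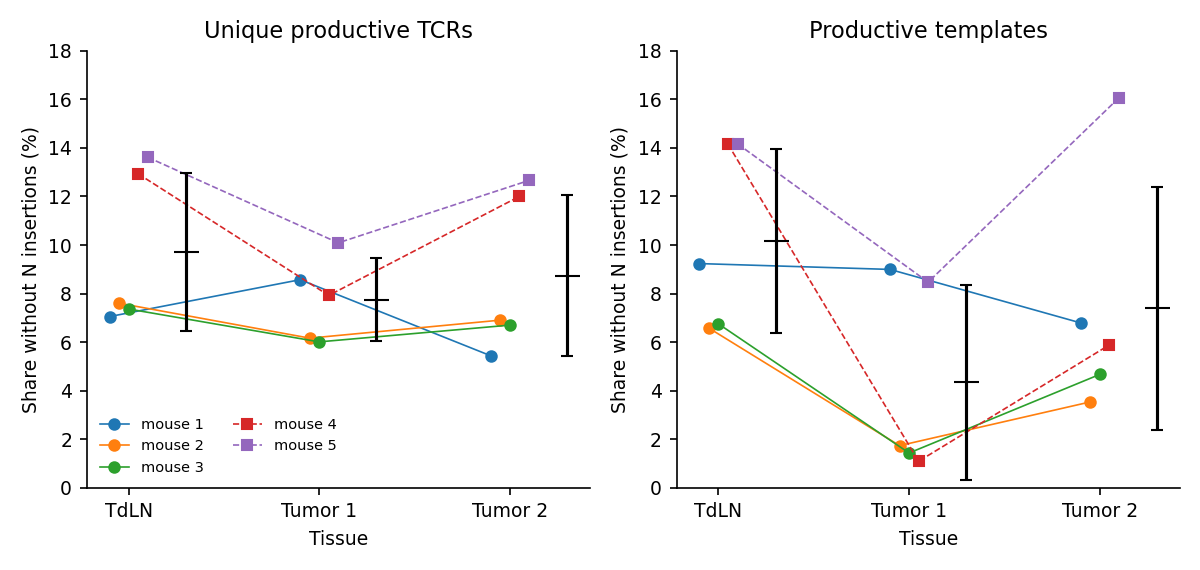
Share of unique productive TCRs (left) and of productive templates (right) without N insertions, in percent, by tissue. Lines join the samples of a mouse, circles are mice 1 to 3, squares are mice 4 and 5, and black bars show the mean and SD of 5 mice. Mice 4 and 5 stood above mice 1 to 3 in the TdLN on both scales, and the tumor 1 template shares fell into a low set near 1% to 2% and a pair above 8%.

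Between the sets of library names, the TdLN share averaged 13.3% ± 0.482 (SD, n = 2) in mice 4 and 5 and 7.34% ± 0.276 (n = 3) in mice 1 to 3, a ratio of 1.81. With 2 mice against 3 the exact permutation test gave p = 0.1, the smallest it can give. In tumor 2 the same means were 12.3% and 6.35%, and in tumor 1 they were 9.01% and 6.92%. Rearrangements that are out of frame make no receptor, and their share without insertions in the TdLN was likewise higher in mice 4 and 5, at 10.4% against 5.91%. The share with exactly 1 insertion was nearer, at 13.0% against 11.9%. The set of library names, the depth of the sample and the mouse cannot be told apart here.

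Productive and out-of-frame rearrangements were compared inside each TdLN. Out-of-frame rearrangements had no insertion in 7.39%, 4.06%, 6.27%, 9.78% and 11.02% of rows in mice 1 to 5. The productive share was higher in 4 of 5 mice, by a mean of 2.01 points, and the difference was -0.339 points in mouse 1. The exact sign-flip permutation test gave p = 0.125 (adjusted p = 0.188 over the 15 within-sample tests). This exact test cannot go below p = 0.0625 with 5 mice, and the smallest adjusted p over the 15 tests was 0.156, so none of the within-sample tests could pass 0.05 here.

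As a share of templates, TCRs without insertions took 9.24%, 6.58%, 6.75%, 14.1% and 14.2% in the TdLNs of mice 1 to 5. They took 8.99%, 1.74%, 1.43%, 1.09% and 8.47% in tumor 1, and 6.79%, 3.54%, 4.67%, 5.88% and 16.1% in tumor 2. Tumor 1 was below the TdLN of the same mouse in 5 of 5 mice, with differences of -13.1 to -0.241 points and a mean of -5.83 points. The largest inserted TCR alone had 538 to 2948 templates in the tumor 1 samples and 27 to 409 in the TdLNs. Its part in the template shares was not tested. In the unpaired exact permutation test p was 0.0635, and the adjusted p over the 6 tissue comparisons was 0.381. The difference averaged -3.47 points within mice 1 to 3 and -9.38 points within mice 4 and 5. Counting rows with 1 assigned D gene only, the difference was -6.60 points with an adjusted exact permutation p of 0.0476. That setting also left out rows whose D bases both D genes hold. Among them were the largest TCRs without insertions in tumor 1 of mouse 1 (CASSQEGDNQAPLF, 264 templates) and of mouse 5 (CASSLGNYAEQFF, 225 templates). With up to 1 insertion allowed the difference was -11.3 points with the same p. Tumor 2 minus TdLN was -2.79 points (p = 0.302) and tumor 1 minus tumor 2 was -3.04 points (p = 0.333), by the same exact permutation test.

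The largest TCR without insertions held part of every tumor value. With the single largest TCR without insertions left out of each sample, the tumor 1 shares became 4.90%, 1.13%, 0.861%, 0.944% and 2.37%, those of tumor 2 4.09%, 2.84%, 2.08%, 3.45% and 10.6%, and those of the TdLN 6.95%, 6.38%, 5.99%, 13.7% and 13.9%. Tumor 1 of mouse 1 and tumor 2 of mouse 5 were still the highest of their tissues. Both tumors then lay below the TdLN in every mouse, whereas tumor 2 of mouse 5 had been above it. The largest inserted TCRs were kept, so this step lowers every share, and most where 1 TCR without insertions holds many of the templates. The direction after it is therefore no separate result.

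Mean templates per TCR were close for both classes in the TdLN and lower for TCRs without insertions in most tumors. In the TdLN the class without insertions had 3.67, 1.73, 2.80, 1.67 and 1.66 templates per TCR in mice 1 to 5, beside 2.74, 2.02, 3.07, 1.504 and 1.58 for inserted TCRs. In tumor 1 the values were 26.3, 4.06, 5.18, 2 and 8.97 beside 24.9, 15.1, 22.8, 15.6 and 10.9. In tumor 2 they were 15, 4.76, 13.8, 2.33 and 4.74 beside 11.8, 9.63, 20.3, 5.09 and 3.59. The mean log2 ratio of TCRs without insertions over inserted TCRs was 0.06 ± 0.25 for the TdLN (SD, n = 5), -1.44 ± 1.29 for tumor 1 and -0.39 ± 0.73 for tumor 2. It was below 0 in 4 of 5 mice in tumor 1 (exact sign-flip permutation p = 0.125, adjusted p = 0.188) and in 3 of 5 in tumor 2 (exact permutation p = 0.312, adjusted p = 0.361). For tumor 1 it turned to 0.12 when medians were used in place of means. The tumor 1 means of inserted TCRs each include a largest TCR of 538 to 2948 templates. The log2 ratio of tumor 1 minus that of the TdLN was -1.49, with an exact permutation p of 0.0397 that was 0.132 after adjustment over 10 such comparisons between tissues.

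**Figure D2:**
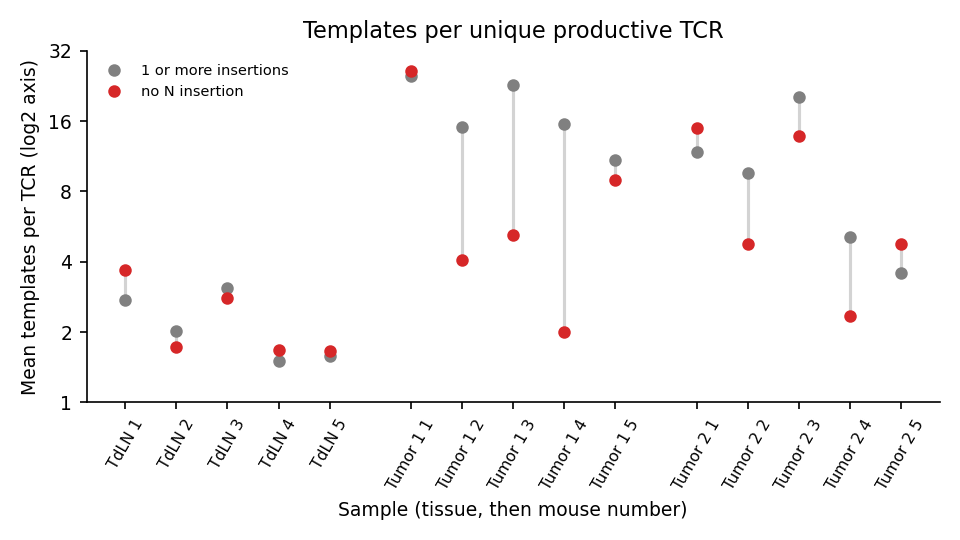
Mean templates per unique productive TCR on a log2 axis, in each of the 15 samples, for TCRs without N insertions (red) and inserted TCRs (grey), with a line joining the classes of a sample. In the TdLN the 2 points lay close together, and in tumor 1 of mice 2, 3 and 4 the red point lay far below the grey one.

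Most TCRs without insertions were small: 1271 of the 2078 were counted from 1 template. In the TdLN 57.8% ± 8.86 (SD, n = 5) of them had a single template, beside 62.1% ± 6.37 of inserted TCRs, with the lower value in the class without insertions in 5 of 5 mice. The TCRs named next are those without insertions that had most templates in each of the 10 tumor samples.

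In tumor 1 of mouse 1 the largest was the Trbv2 TCR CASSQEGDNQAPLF, whose whole read is shown above, with 264 of 6137 productive templates (4.30%, 95% Wilson interval 3.82 to 4.84), the fourth largest productive TCR of that sample. It was also the largest without insertions in tumor 2 of mouse 1, with 112 templates (2.82%, 2.35 to 3.38), and in tumor 2 of mouse 2, with 24 (0.713%, 0.480 to 1.06). The same 87 bases had 93 templates in the TdLN of mouse 1, 9 in that of mouse 4, 6 in that of mouse 5 and 33 in tumor 2 of mouse 5, and 0 in the other 8 samples. A further 5 rearrangements with the same CDR3 differed from it in the V part alone and had 1 template in each sample that listed them. With 549 templates in all, this CDR3 was the largest of those named across mice.

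In tumor 2 of mouse 3 the largest was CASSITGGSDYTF (Trbv19, chr6:41178982-41179047, to Trbj1-2, chr6:41534005-41534017), with 102 of 3855 templates (2.65%, 2.18 to 3.20). The same bases had 26 templates in tumor 2 of mouse 1 and 18 in tumor 2 of mouse 2, and no TdLN or tumor 1 sample listed them. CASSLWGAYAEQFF (Trbv29 to Trbj2-1) was spread likewise, with 1, 2 and 63 templates in tumor 2 of mice 1, 2 and 3, of which 62 in mouse 3 were of its largest rearrangement, and none elsewhere. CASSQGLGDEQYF (Trbv5 to Trbj2-7) was found in the TdLN and tumor 1 of mice 1, 3 and 5. Its form with 9 D bases had 4, 26, 2 and 2 templates in TdLN 1, TdLN 5, tumor 1 of mouse 1 and tumor 1 of mouse 5, and its form with 11 D bases had 12 in TdLN 3 and 23 in tumor 1 of mouse 3, where it was the largest without insertions.

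The remaining TCRs that were largest in their tumor are shown because each is mostly of 1 mouse. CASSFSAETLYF has no D base, so V and J meet directly.
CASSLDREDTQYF, Trbv12-1 to Trbj2-5: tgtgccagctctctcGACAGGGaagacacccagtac
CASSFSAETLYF, Trbv14 to Trbj2-3: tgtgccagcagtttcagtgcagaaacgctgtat
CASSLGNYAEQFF, Trbv3 to Trbj2-1: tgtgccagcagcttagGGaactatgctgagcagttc
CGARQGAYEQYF, Trbv20 to Trbj2-7: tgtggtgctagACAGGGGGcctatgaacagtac
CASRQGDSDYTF, Trbv13-1 to Trbj1-2: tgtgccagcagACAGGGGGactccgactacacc

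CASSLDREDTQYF had 26 templates in tumor 1 of mouse 2, 11 in its tumor 2 and 1 in its TdLN, besides 1 in tumor 2 of mouse 1. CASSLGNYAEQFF, from Trbv3, had 225 of the 3601 templates in tumor 1 of mouse 5 (6.25%, 5.50 to 7.09), 3 in its TdLN and 2 in its tumor 2, and was the third largest TCR of its sample. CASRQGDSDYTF, from Trbv13-1, had 127 of 2068 templates in tumor 2 of mouse 5 (6.14%, 5.19 to 7.26), where it was the second largest TCR, and was listed in no other sample. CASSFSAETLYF had 8 templates in tumor 1 of mouse 4 and 4 in tumor 1 of mouse 5, and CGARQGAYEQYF had 6 in tumor 2 of mouse 4 and 3 in tumor 1 of mouse 5. The template share of the largest TCR without insertions therefore ranged from 0.151% to 6.25% over the tumors.

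V gene usage was compared in the TdLN, the tissue with enough TCRs per gene, on counts of unique TCRs. Of the 20 V genes tested, 3 had a different share among TCRs without insertions (15% of those tested, edgeR quasi-likelihood test with the mouse as a block, adjusted p under 0.05). Trbv4 and Trbv3 took smaller shares and Trbv20 a larger one. V genes encode the outer part of the β chain variable domain and the first residues of the CDR3.

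Trbv4 (chr6:41059394-41059886) accounted for 3.16%, 2.42%, 4.21%, 1.89% and 1.93% of TCRs without insertions in mice 1 to 5 and for 4.31%, 5.18%, 5.27%, 4.90% and 4.65% of inserted TCRs. The classes did not overlap, and the log2 fold was -1.17 ± 0.22 (SE, edgeR adjusted p = 2.79e-05). Trbv4 passed under each of the alternatives tried. Trbv3 (chr6:41048290-41048828) fell from 7.10% ± 0.455 of inserted TCRs to 4.61% ± 1.15, lower in 5 of 5 mice without overlap (log2 fold -0.51 ± 0.16 SE, edgeR adjusted p = 0.0150). Its call was lost in edgeR without mouse 2, 4 or 5 (adjusted p of 0.0609, 0.322 and 0.0557), in DESeq2 (0.133) and in limma (0.0593). Trbv20 (chr6:41188273-41188977) was the gene with the larger share, at 2.11%, 1.61%, 4.21%, 4.86% and 3.59% of TCRs without insertions beside 2.08%, 1.92%, 2.68%, 2.19% and 2.21% of inserted ones. Its log2 fold was 0.83 ± 0.22 (SE, edgeR adjusted p = 0.00305), it was higher in 4 of 5 mice, and mouse 2 went the other way. Without mouse 4 its log2 fold was 0.50 with an adjusted p of 0.397 in edgeR, and without mouse 5 it was 0.77 with an adjusted p of 0.130. DESeq2 gave an adjusted p of 0.0788, limma one of 0.253 and the exact permutation test of shares one of 0.302.

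Trbv26, named after its values were seen, had a share of 10.5%, 4.03%, 6.32%, 2.57% and 2.44% without insertions and of 2.16%, 1.92%, 1.76%, 2.05% and 2.29% with them, higher in 5 of 5 mice without overlap. Its edgeR adjusted p was 0.0509. It passed with DESeq2 (adjusted p = 0.0458), with limma (0.0487) and with edgeR when mouse 4 (0.0387) or mouse 5 (0.0283) was left out. Trbv19 also did not overlap, at 4.87% ± 1.56 without insertions and 8.37% ± 1.65 with them, with an edgeR adjusted p of 0.0586. Nor did Trbv24, at 0.584% ± 0.406 and 1.16% ± 0.0531 (edgeR adjusted p = 0.0808). Trbv13-3 did not either, at 7.13% ± 0.915 and 5.53% ± 0.401 (edgeR adjusted p = 0.268).

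J genes supply the end of the CDR3, and 2 of the 12 tested had a different share (16.7%, same edgeR test). Trbj2-3 (chr6:41543223-41543271) accounted for 6.32%, 4.84%, 6.32%, 4.73% and 4.62% of TCRs without insertions and for 8.31%, 9.56%, 7.78%, 7.69% and 8.15% of inserted TCRs. Every mouse was lower without insertions, and the log2 fold was -0.73 ± 0.15 (SE, edgeR adjusted p = 0.000176). Trbj1-2 (chr6:41534001-41534048) took 7.37%, 7.26%, 3.16%, 7.84% and 8.86% beside 4.71%, 5.91%, 5.94%, 5.58% and 5.73%, higher in 4 of 5 mice, with a log2 fold of 0.49 ± 0.13 (SE, edgeR adjusted p = 0.00222). Left without mouse 4 or mouse 5, Trbj1-2 had edgeR adjusted p-values of 0.219 and 0.215, and its adjusted p was 0.0717 in DESeq2 and 0.845 in limma. Trbj2-3 passed in all of these fits, and in the exact permutation test of shares its adjusted p was 0.0952. The most used J gene, Trbj2-7, had nearly the same share in both classes, 22.4% ± 3.99 and 21.9% ± 0.802 (edgeR adjusted p = 0.897).

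**Figure D3:**
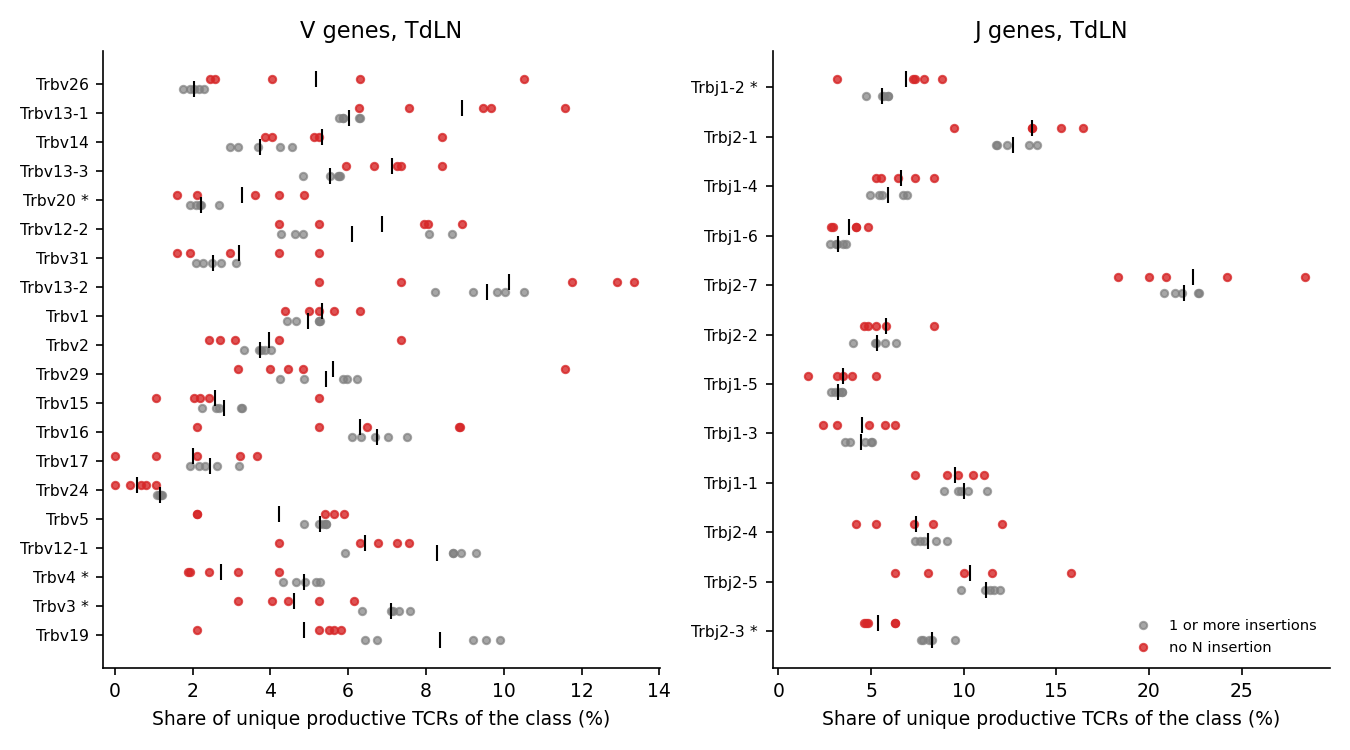
Share of unique productive TCRs taken by each tested V gene (left) and J gene (right) in the TdLN, in percent, ordered by the difference of means, with red points for TCRs without N insertions, grey points for inserted TCRs (5 mice each) and black ticks for means. Stars mark edgeR adjusted p under 0.05, which 3 V genes and 2 J genes reached, and the red points spread more widely than the grey ones.

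In the tumors the 113 and 132 TCRs without insertions were too few per gene for this test. They used 21 V genes in tumor 1 and 20 in tumor 2. The most frequent, named after the counts were seen, was Trbv19 in both, with 10 TCRs from 4 mice in tumor 1 and 21 from 4 mice in tumor 2. The tumor 2 count includes the rows of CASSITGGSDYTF in mice 1, 2 and 3, of which mouse 3 had 4. Inserted TCRs of the tumors were not counted by V gene, so whether Trbv19 leads among them as well is not shown.

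CDR3s without insertions were shorter. In the TdLN their mean length was 37.9, 38.0, 38.1, 38.3 and 38.7 bases in mice 1 to 5, and that of inserted TCRs was 42.7, 42.5, 42.4, 42.3 and 42.3. The classes did not overlap, and the mean difference was -4.26 ± 0.438 bases (SD, n = 5, exact sign-flip permutation p = 0.0625, the smallest possible, adjusted p = 0.156). In tumor 1 the difference was -2.99 ± 0.889 bases and in tumor 2 -3.71 ± 1.71, with the shorter CDR3 in the class without insertions in 5 of 5 mice for both and the same p-values. An inserted TCR carries at least 1 base that this class lacks, so at least part of the difference is set by the definition. Productive TCRs of the TdLN, those without insertions included, carried 3.59 ± 0.306 N bases on average (SD, n = 5). How much of the difference these bases make up was not tested.

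**Figure D4:**
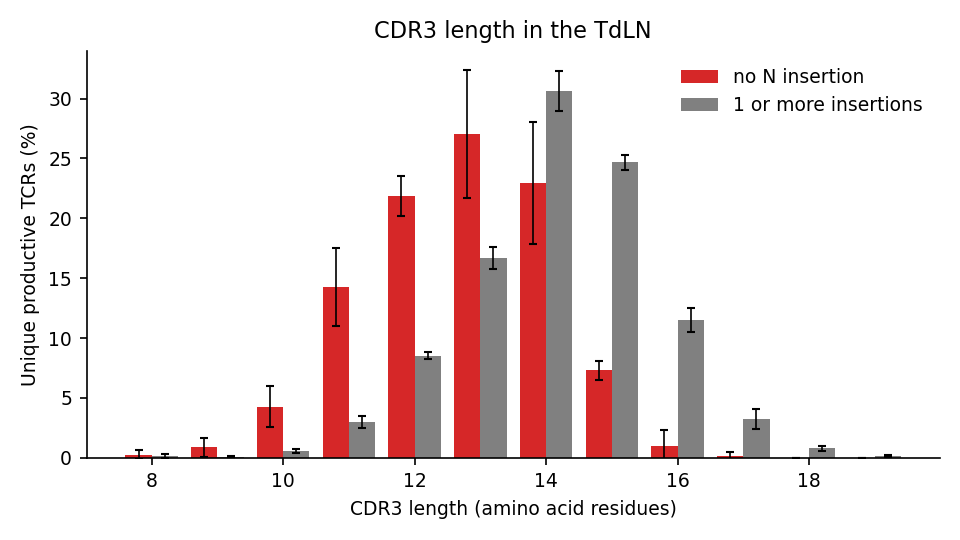
CDR3 length in amino acid residues of unique productive TCRs in the TdLN, as the percent of TCRs without N insertions (red) and of inserted TCRs (grey), with bars for the mean and error bars for the SD of 5 mice. The red bars peaked at 13 residues (27.0%) and the grey ones at 14 (30.6%).

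The commonest CDR3 length without insertions was 13 residues, with 27.0% ± 5.32 of TdLN TCRs, and with insertions 14 residues, with 30.6% ± 1.65. Lengths of 11 residues made up 14.3% ± 3.28 of TCRs without insertions and 2.99% ± 0.494 of inserted ones. Lengths of 16 residues made up 0.978% ± 1.32 and 11.5% ± 0.983. Over all samples, CDR3s without insertions ranged from 15 to 51 bases.

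Less of the V gene had been trimmed in TCRs without insertions. V segments in the TdLN had lost 2.06 ± 0.230 bases (SD, n = 5) in this class and 2.72 ± 0.116 in inserted TCRs, less in 5 of 5 mice (exact sign-flip permutation p = 0.0625, adjusted p = 0.156). J segments had lost 2.96 ± 0.116 and 2.86 ± 0.0460 bases, a difference of 0.104 in the opposite direction that was higher in 4 of 5 mice (exact permutation p = 0.125, adjusted p = 0.188). An untrimmed V end was listed for 29.2% ± 6.23 and 22.2% ± 2.44. D parts were 6.30 ± 0.298 and 6.98 ± 0.0619 bases long, shorter without insertions in 5 of 5 mice. A missing D part was more frequent without insertions, at 4.05% ± 1.18 beside 1.63% ± 0.223, also in 5 of 5 mice. Where no N base is called, bases at a joint that could belong to either segment are given to a segment, and the part of that in these trimming values was not tested.

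The opening residues CASS, which many Trbv genes encode, were found in 69.0% ± 1.90 of TdLN TCRs without insertions and 72.3% ± 0.658 of inserted TCRs, lower in 5 of 5 mice. Glycine, which the G-rich D segments encode in several frames, made up 10.7% ± 0.538 of CDR3 residues without insertions and 10.6% ± 0.339 with them.

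TCRs without insertions were found in other mice more often than inserted TCRs. In the TdLN, 41.1% (39 of 95), 41.1% (51 of 124), 36.8% (35 of 95), 24.6% (182 of 740) and 25.5% (199 of 779) of them had a CDR3 amino acid sequence that was also listed for another mouse. Of inserted TCRs it was 12.4%, 15.1%, 11.8%, 9.67% and 9.04%. The classes did not overlap, and the difference averaged 22.2 ± 6.13 percentage points (SD, n = 5, exact sign-flip permutation p = 0.0625, adjusted p = 0.156). Looking only for matches within mice 1 to 3 and within mice 4 and 5, it was 8.61 and 12.2 points. Counting only matches through another nucleotide sequence, 30.4% ± 7.12 and 10.1% ± 1.43 had one, a difference of 20.3 points. When the V and J genes had to match as well, the difference was 11.4 points for the TdLN, 8.19 for tumor 1 and 5.20 for tumor 2. Matches of the same nucleotide sequence were rarer, at 7.76% ± 4.20 and 2.17% ± 1.63, and again more frequent without insertions in 5 of 5 mice.

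In tumor 1 the share found in another mouse was 61.9%, 50%, 36.4%, 24.1% and 52.9% without insertions, beside 42.9%, 49.3%, 22.1%, 31.2% and 24.1% with them. Mouse 4 was the exception to the higher value, and the mean difference was 11.2 ± 14.4 points (exact sign-flip permutation p = 0.188, adjusted p = 0.256). Without mouse 5 it was 5.61 points. In tumor 2 it was 83.3%, 76.0%, 76.9%, 50% and 21.4% beside 70.9%, 57.9%, 65.2%, 52.3% and 19.05%. Here the mean difference was 8.48 ± 8.25 points (exact sign-flip permutation p = 0.125, adjusted p = 0.188), and again mouse 4, with 3 of 6 TCRs, went the other way. This difference was 15.2 points without mouse 5 and 5.25 points without mouse 2. Through another nucleotide sequence the differences were 14.5 points in tumor 1 and 16.3 points in tumor 2. Copies of a read that differ in the V part alone were counted here as another sequence, and in all these shares as separate TCRs. In tumor 1 of mouse 1, 6 of the 13 TCRs without insertions found in another mouse were rows of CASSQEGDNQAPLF. In tumor 2 of mouse 3, 4 of 10 were rows of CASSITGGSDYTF. Rows per distinct CDR3 were 1.75 without and 1.22 with insertions in the former sample, and 1.44 and 1.36 in the latter. The high values of tumor 2 went with the exact sharing across mice described above, whose part in them was not tested. The difference in tumor 2 minus that in the TdLN was -13.8 points, with an exact permutation p of 0.0238 that was 0.132 after adjustment over the 10 comparisons between tissues.

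In the TdLN the share found in another mouse was lower with each added N base up to 6. It averaged 33.8% ± 8.19 (SD, n = 5) at 0 insertions, 22.9% ± 4.19 at 1, 17.3% ± 2.53 at 2, 13.7% ± 3.88 at 3, 9.24% ± 3.14 at 4, 6.96% ± 3.35 at 5 and 3.502% ± 2.13 at 6. At 7 insertions it was 3.99% ± 3.37 and at 8 or more 1.95% ± 2.09. TCRs without insertions were thus the end of a graded series, and neighbouring steps overlapped within their SD. In tumor 2 the share at 1 insertion (67.8% ± 18.5) was above that at 0 (61.5% ± 25.8), and 38.3% ± 24.7 were still shared at 8 or more.

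**Figure D5:**
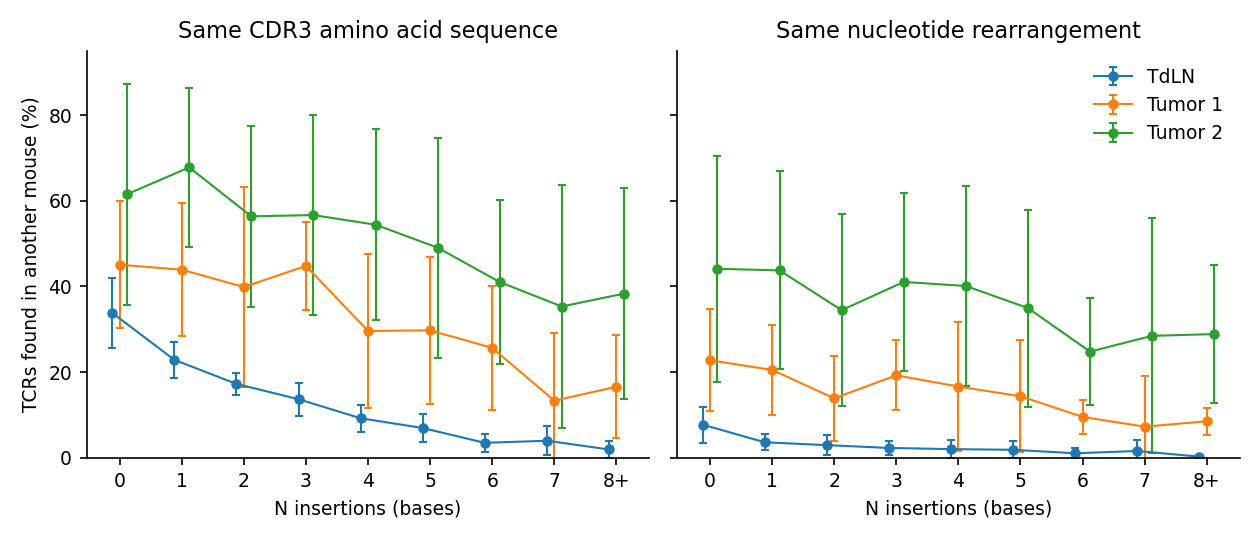
Share of unique productive TCRs, in percent, whose CDR3 amino acid sequence (left) or whole nucleotide sequence (right) was listed for another mouse, by number of N insertions, as mean and SD of 5 mice in each tissue, with bars cut at 0. The TdLN curve fell from 33.8% at 0 insertions to 1.95% at 8 or more on the left and stayed under 8% on the right, while the tumor 2 curve stayed above 35% and above 24%.

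Sharing was also compared between CDR3s of equal length in the TdLN. At 12 residues 25.5% ± 3.18 of TCRs without insertions and 14.2% ± 4.03 of inserted TCRs were found in another mouse. At 13 residues the shares were 31.4% ± 16.6 and 13.8% ± 3.83, and at 14 residues 36.1% ± 13.7 and 14.0% ± 2.50, each higher without insertions in 5 of 5 mice. At 15 residues they were 35.96% ± 24.2 and 10.6% ± 3.48, higher in 4 of 5. Weighted to equal lengths, the difference was 20.1 points for the TdLN, 11.2 for tumor 1 and 3.39 for tumor 2, beside 22.2, 11.2 and 8.48 points without the weights.

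Among the TdLN TCRs without insertions, those found in another mouse had more templates on average than those that were not. Their means were 6.49, 1.98, 3.31, 1.99 and 1.81 templates in mice 1 to 5, beside 1.71, 1.55, 2.50, 1.56 and 1.60, and the mean of mouse 1 includes the TCR of 93 templates. The share of single templates differed in direction between mice, at 66.7%, 45.1%, 34.3%, 57.7% and 64.8% for those found in another mouse beside 58.9%, 63.0%, 48.3%, 65.4% and 64.3%. Those found in another mouse also had less of V trimmed, 1.77 ± 0.280 bases beside 2.24 ± 0.307 (SD, n = 5), in 5 of 5 mice. Their CDR3s were equally long to within the spread, at 38.2 ± 0.251 and 38.2 ± 0.375 bases. Larger TCRs are also more readily sampled in any mouse, and these were descriptions without an adjusted test.

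Counted within their own class, most CDR3s without insertions were nevertheless made in a single mouse. Over the TdLNs alone, 91.9% of the distinct CDR3s made without insertions were made so in 1 mouse only, 101 in 2 mice, 16 in 3 and 1 in all 5. Of the CDR3s made with insertions 96.5% were made so in 1 mouse, and 12 in 4 mice. Here a CDR3 made in the other class in another mouse was not counted, unlike in the shares above. In the TdLN a CDR3 without insertions was written by 1.12 ± 0.0465 (SD, n = 5) different rearrangements, beside 1.08 ± 0.0297 with insertions. The difference of 0.0370 was positive in 5 of 5 mice (exact sign-flip permutation p = 0.0625, adjusted p = 0.156).

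Whether tumor TCRs were also in the TdLN of the same mouse was compared between the classes. No difference passed a test, and none could, as the exact sign-flip permutation test of 5 mice cannot go below p = 0.0625. In tumor 1 the exact sequence was also in the TdLN for 42.9% (9 of 21), 33.3% (6 of 18), 54.5% (6 of 11), 20.7% (6 of 29) and 26.5% (9 of 34) of TCRs without insertions, beside 46.0%, 35.8%, 48.8%, 10.7% and 23.1% of inserted TCRs. The mean difference was 2.71 ± 5.55 points, with 3 of 5 mice higher (exact sign-flip permutation p = 0.312, adjusted p = 0.361). It was 0.880 points without mouse 4, 4.16 without mouse 1 and 0.0501 within mice 1 to 3. In tumor 2 the shares were 16.7% (3 of 18), 24.0% (6 of 25), 0 of 13, 16.7% (1 of 6) and 10% (7 of 70), beside 23.0%, 26.1%, 1.66%, 20.5% and 4.76%. The mean difference was -1.73 ± 4.31 points (exact permutation p = 0.375, adjusted p = 0.402), -0.580 without mouse 1 and -3.47 without mouse 5. Matched by CDR3 amino acid sequence, the differences were 10.1 points in tumor 1 and -4.14 in tumor 2, and neither passed (adjusted exact permutation p = 0.312 and 0.402). Finding 0 of 13 in mouse 3 allows a share of up to 23.1%.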

How the data were processed

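The immunoSEQ assay was run on genomic DNA of sorted CD8+ PD-1+ CD44+ cells, and its provider processed the reads. Software versions are not given in the sources used here. The deposited counts, of templates for each rearrangement of 87 bases, are whole and not normalized, and they equalled the estimated genomes listed beside them in every row. The deposited fraction of each rearrangement, its count over the total of its sample, was not used. N insertions, trimming, CDR3 length, V, D and J genes and frame were taken as deposited, and no insertion value was negative. The build mm10 is named in the submitters' processing notes. The V, D and J parts were matched to GRCm38.p6 with GENCODE M21 gene names, which were found for all 50 gene names of the productive TCRs.

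The TCRs described, the gene lists and the tests were chosen with earlier results of these data known. Shares of tissues were compared with two-sided exact permutation tests (252 splits, smallest p 0.00794), and classes within samples with exact sign-flip permutation tests (32 sign patterns, smallest p 0.0625), with Benjamini-Hochberg adjustment. V and J genes above a mean share of 1% were tested on numbers of unique TCRs with edgeR's quasi-likelihood test, with the mouse as a block and without TMM. Fold standard errors come from its F statistic. Scripts were tested on simulated data. Genes were named when they passed an adjusted p of 0.05. Trbv26, Trbv19, Trbv24, Trbv13-3 and Trbj2-7, which did not, were named after their values were seen. CDR3s named are the 5 found in most mice, ties by templates, and the largest TCR without insertions of each tumor. A number shared by samples was read as 1 mouse, as the paper describes paired samples. Their deviations from the tissue means correlated at 0.305 to 0.993 over the tissue pairs. As mice 4 and 5 stood apart from mice 1 to 3, this does not test the pairing within each set. In tumor 2 of mouse 3, 1.66% of inserted sequences were in the TdLN of the same number, beside 4.76% to 26.1% in the other tumor 2 samples. Of the same sequences 40.3% were listed for other numbers. Whether the 5 mice came from separate experiments is not stated, and the exact permutation p-values measure the spread between these mice. Those of edgeR and DESeq2 come from numbers of TCRs, most of them from mice 4 and 5, and so are not a plain test of 5 shares. Near-copies, whose last 40 bases equal those of a rearrangement with 50 or more times their templates, numbered 20 here and 289 among productive TCRs, and were kept. Alternatives left out each mouse, near-copies, single templates, rows without 1 assigned D gene or unusual CDR3s. Others kept 1 set of library names, allowed 1 insertion, equalized depth or CDR3 length, or matched TCRs by other keys. For genes, DESeq2, limma, TMM, other filters or exact permutation were used. Precision is set by the number of TCRs per sample, and Wilson intervals (95%) cover counting error only. Python 3.11.15, numpy 2.4.6, pandas 2.3.3, scipy 1.17.1, matplotlib 3.10.9, R 4.3.3, edgeR 4.0.16, limma 3.58.1 and DESeq2 1.42.0 were used.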

Additional observations from a re-analysis of the deposited data

Results flagged for a closer look

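In tumor 2, mouse 5 stood apart from the other 4 mice in its template share without N insertions, at 16.1% beside 3.54% to 6.79%, with a gap of 0.740 of the whole range of the group. With its largest such TCR, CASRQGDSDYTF with 127 templates, left out, the share was 10.6%, still the highest of the group. Also in tumor 2, mouse 4 stood apart in the difference of mean CDR3 length between TCRs without and with insertions, at -6.68 bases, with a gap of 0.746 of the range; it rests on 6 TCRs without insertions. Without mouse 4 the mean difference of tumor 2 was -2.96 bases. A gap beyond the 95% limit of Dixon's ratio for 5 samples is given by chance in about 1 of 20 groups.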

How the results depend on the processing

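Of 330 alternative values for the 23 comparisons, 309 kept the direction and the side of the threshold of the reported value, or a gene count within 1.5 times of it. In the 15 within-sample tests (smallest p 0.0625 by exact sign-flip permutation) the side could not change. Nor could it in tissue tests kept to 1 set of library names. For these the count speaks of direction alone. Limits are set by 5 mice, by 6 to 70 TCRs without insertions per tumor, and by the library name sets. With the replicate number as a block (sign-flip permutation) the template share of tumor 1 minus TdLN was -5.83 (exact p = 0.0625, adjusted p = 0.188) and the unique share of tumor 2 minus TdLN -0.973 (the same p-values); no blocked test of 5 mice can pass 0.05, so it bears on no call. Without the block edgeR called 4 V genes and 3 J genes.

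The template share of tumor 1 minus TdLN passed at -6.60 points with 1 assigned D gene only and at -11.3 with up to 1 insertion counted as none. The former setting leaves out rows whose D bases both genes hold, as in the largest TCRs without insertions in tumor 1 of mice 1 and 5. The log2 ratio of templates per TCR in the TdLN, 0.06, turned to -0.0171 with an assigned D gene and to -0.0231 with at least 2 templates, and ranged from -0.0358 (without mouse 1) to 0.126 with 1 mouse left out; that of tumor 1 turned to 0.12 with medians. Within mice 1 to 3 the unique share of tumor 1 minus tumor 2 was 0.567. Within mice 4 and 5 the tumor 2 difference in CDR3s found in another mouse was -2.25 points and that of sequences found in the TdLN of the same mouse 0.725. Counting up to 1 insertion as none, the latter was 2.70, the unique share of tumor 2 minus TdLN was 0.00214 and the difference in J trimming was -0.144; with an assigned D gene only J trimming was -0.0121. None of these reversed values passed a test before or after. V genes called numbered 5 with TMM, 5 with an assigned D gene and 7 in the exact permutation test of shares, and 2 to 4 with 1 mouse left out. J genes called numbered 1 with DESeq2, 1 with limma and 0 in the exact permutation test, and 1 to 3 with 1 mouse left out, with 1 without mouse 4 or 5. In that test 1 J gene, Trbj2-3, had an unadjusted p under 0.05 (exact p = 0.00794). The causes were not tested. Matches through another nucleotide sequence were added after the data were seen.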

Other observations

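Rearrangements with a premature stop codon are listed beside the productive ones. In the TdLNs of mice 1 to 5 they numbered 19, 41, 28, 106 and 105, of which 0, 3, 2, 10 and 14 had no N insertion. J genes of the first cluster (Trbj1) were used by 34.9% ± 3.003 (SD, n = 5) of TdLN TCRs without insertions and by 32.4% ± 1.48 of inserted TCRs, higher in 5 of 5 mice. In the tumors the same shares were 40.6% ± 10.2 and 32.3% ± 3.17 in tumor 1 (higher in 3 of 5 mice) and 46.2% ± 14.8 and 30.6% ± 5.19 in tumor 2 (higher in 4 of 5). V trimming in the tumors was also less without insertions, at 1.93 ± 0.567 beside 3.63 ± 0.610 bases in tumor 1 and 2.05 ± 1.17 beside 3.55 ± 0.551 in tumor 2, in 5 of 5 mice each.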
